A study of Mus musculus with 4 samples.

Results

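The Tie receptors and their angiopoietin ligands form a signalling system of the vascular wall, and 6 of its genes were followed here among the 21578 genes with a count in brain endothelial cells of newborn mice. The genes are a list given by name, with no threshold on their values: the receptors Tek (Tie2) and Tie1, the ligands Angpt1 and Angpt2, the receptor phosphatase gene Ptprb (VE-PTP) and the transcription factor Foxo1. All 6 had reads in every library, and all 6 passed the filter on low counts that left 15909 genes for testing. The study asked how the transcriptome of endothelial cells changes when Pd1 (gene symbol Pdcd1), which encodes the immune checkpoint receptor PD-1, is deleted in them. RNA sequencing was done on brain endothelial cells purified by flow cytometry at postnatal day 0 from C57BL/6 mice, with 2 libraries per genotype. Pd1fl/fl mice carry the floxed allele and served as controls, and in Pd1cKO-Tie2 mice the floxed allele is deleted by Cre under the Tie2 promoter. Tie2-Cre is also active in blood cell lineages, and the labels do not state whether control mice carried Cre or how many animals went into a library, so the p-values measure the spread between libraries, which may be technical.

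Tie2 is a receptor tyrosine kinase of endothelial cells, and Tie1 is its close relative, which has no firmly established ligand of its own and modulates Tie2. Angiopoietin 1, made by pericytes and other perivascular cells, activates Tie2 and keeps vessels quiescent, whereas angiopoietin 2, released by endothelial cells themselves, is a context-dependent antagonist or weak agonist. VE-PTP removes phosphate from Tie2 and associates with VE-cadherin at junctions, and signalling from Tie2 through AKT keeps FOXO1, an activator of Angpt2 transcription, out of the nucleus.

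Library totals ran from 13714374 to 24146115 counts, the largest being Pd1cKO-Tie2 replicate 1. Pdcd1, the targeted gene, reached 32 counts in Pd1fl/fl replicate 1 and stood at 0 in both Pd1cKO-Tie2 libraries. It was not listed for Pd1fl/fl replicate 2, which by the apparent listing rule of the deposited counts limits it to at most 4 there. Pd1fl/fl replicate 2 therefore could not be told from the deleted libraries by this gene. Pd1fl/fl replicate 1 also stood apart in neutrophil genes, with 3132 counts of Ltf and 531 counts of S100a8. Ltf had 0 in both Pd1cKO-Tie2 libraries and, by the same rule, at most 4 in Pd1fl/fl replicate 2. S100a8 had 7, 5 and 13 in the other libraries. A count of 3 corresponded to between 0.126 and 0.220 CPM (counts per 1000000 scaled counts of the library). Endothelial transcripts were abundant in each library. The 14 endothelial markers together reached 12217 and 11248 CPM in the controls against 14623 and 15530 CPM in Pd1cKO-Tie2, with no marker at 0. Markers of other cell types, given below, were present too, so these sums do not measure purity. No gene reached an adjusted p under 0.05 in edgeR's quasi-likelihood test with Benjamini-Hochberg adjustment (smallest adjusted p 0.735), although 1016 genes, or 6.39% of those tested, had an unadjusted p under 0.05 and DESeq2 called 114 genes after adjustment.

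Tek lies on the forward strand at chr4:94739289-94874976 (GRCm38, as are all positions of genes below) with 23 exons, and Tie1 lies on the same chromosome at chr4:118471191-118490061, on the reverse strand, also with 23 exons. Because the Tek promoter is the origin of the Tie2 promoter that drives Cre here, the endogenous windows of both receptors are shown, from 250 bases before to 50 bases after the RefSeq start in GRCm38.p6, 5′ to 3′, chr4:94739039-94739338 on the plus strand and chr4:118489800-118490099 on the minus strand. Capitals mark the core GGAA of ETS factors, a family that drives many endothelial genes, or its reverse complement TTCC.
Tek: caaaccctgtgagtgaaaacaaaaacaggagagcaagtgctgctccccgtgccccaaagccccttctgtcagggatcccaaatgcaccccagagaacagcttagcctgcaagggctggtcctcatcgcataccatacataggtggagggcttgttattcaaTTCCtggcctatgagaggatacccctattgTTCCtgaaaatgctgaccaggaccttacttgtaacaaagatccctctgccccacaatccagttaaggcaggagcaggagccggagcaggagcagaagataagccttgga
Tie1: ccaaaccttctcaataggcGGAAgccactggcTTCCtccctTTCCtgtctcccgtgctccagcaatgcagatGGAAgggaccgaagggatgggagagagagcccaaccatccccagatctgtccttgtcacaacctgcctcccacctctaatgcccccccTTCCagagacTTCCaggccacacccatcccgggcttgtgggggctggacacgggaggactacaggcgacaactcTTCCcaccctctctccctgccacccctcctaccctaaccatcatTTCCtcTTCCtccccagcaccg
The Tek window held 2 such cores, a number that 84.6% of all 32851 RefSeq windows of this length reach, whereas the Tie1 window held 9, which only 1.59% reach. Most of the Tie1 window lies inside the annotated gene, whose span reaches to position 118490061, upstream of the RefSeq start used. The core GATA, searched on both strands, matched 2 times in the Tek window and not in that of Tie1, and 57.9% of all windows held at least 1. The forkhead core AAACA, searched on both strands and contained in the longer motif that follows, matched 2 times in the Tek window and not in that of Tie1, and 50.5% of all windows held at least 1. The letters GTAAACA, a FOXO motif present in 3.65% of windows, were found in neither. These matches describe the letters of the windows and are no measure of binding.

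Ptprb lies on the forward strand at chr10:116275523-116389535 with 34 exons, Angpt1 at chr15:42424727-42676977 and Angpt2 at chr8:18690263-18741562, each on the reverse strand with 9 exons, and Foxo1 on the forward strand at chr3:52268336-52353221 with 3 exons. Of the exon bases, 737 in Angpt1 and 674 in Foxo1 are also covered by a gene on the other strand, and the use of strand in counting was not stated, so reads there could not be assigned to 1 strand.

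The 6 genes fell into an abundant and a less abundant set. Expressed as CPM per kilobase of exon, Tie1 stood at 113 and 108 in the controls against 128 and 155 in Pd1cKO-Tie2. Tek followed at 90.5 and 86.1 against 103 and 119, and Ptprb at 35.9 and 34.5 against 45.6 and 48.5. The receptors and their phosphatase gene were thus abundant in every library. On the same per-length scale Angpt2 lay between 4.85 and 9.09, Foxo1 between 1.57 and 3.08, and Angpt1 between 0.0666 and 2.57. Over the 4 libraries, the ranges of Tie1 and Tek overlapped, as did those of Foxo1 and Angpt1, whereas the other neighbours in this order did not overlap.

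**Figure D1:**
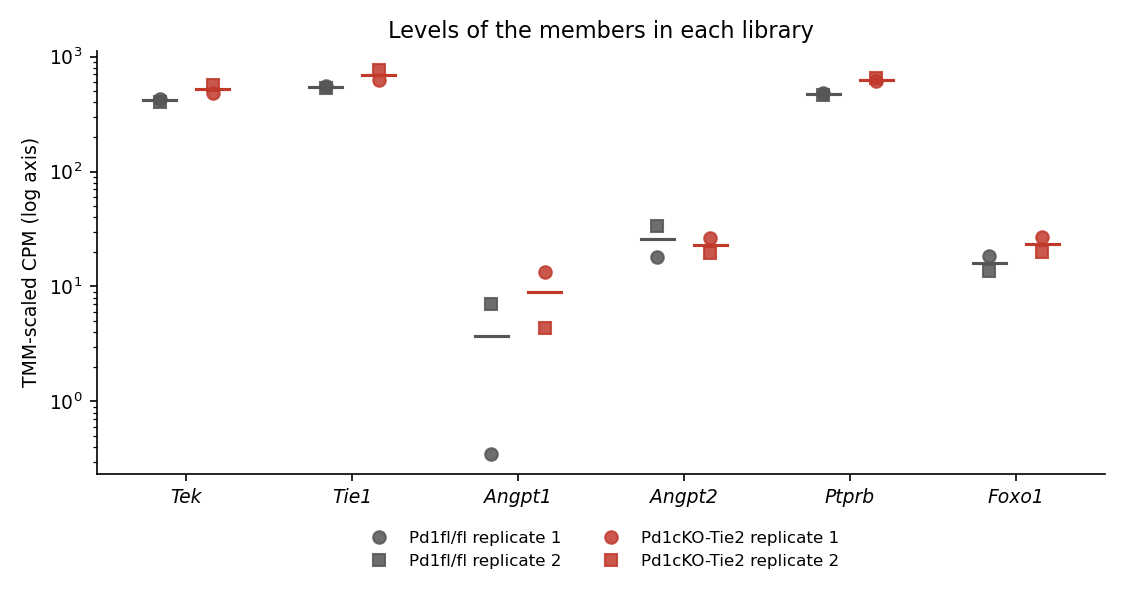
TMM-scaled CPM (log axis, not divided by length) of the 6 genes in the 4 libraries, with circles and squares for replicates 1 and 2 and a line at each group mean. Tek, Tie1 and Ptprb lie at 406 CPM or more in every library, while Angpt1 ranges from 0.347 to 13.4 CPM.

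Transcripts of both receptors were somewhat more abundant in the Pd1cKO-Tie2 libraries. Tek had 6146 and 5761 counts in the controls against 11600 and 7646 in Pd1cKO-Tie2, which after scaling (TMM, trimmed mean of M values) were 426 and 406 CPM against 485 and 560 CPM. Both Pd1cKO-Tie2 libraries lay above both controls, and the closest pair of libraries from the 2 groups differed 1.14-fold, about as much as the Pd1cKO-Tie2 libraries differed from each other (1.15-fold). The mean level was 416 ± 14.5 CPM (SD, n = 2) in Pd1fl/fl and 523 ± 52.7 CPM (SD, n = 2) in Pd1cKO-Tie2. The log2 fold change was 0.33 with a standard error of 0.14, or 1.26-fold, and did not pass edgeR's quasi-likelihood test (Benjamini-Hochberg adjusted p = 0.814, rank 1176 by p among the tested genes). Whether the Tie2-Cre transgene itself added reads to Tek was not tested.

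Tie1 showed the same order of libraries. Its counts were 7993 and 7520 in the controls against 15029 and 10426 in Pd1cKO-Tie2, or 554 and 530 CPM against 629 and 764 CPM. Again no Pd1cKO-Tie2 library fell to the control level, the nearest pair differing 1.13-fold and the Pd1cKO-Tie2 libraries 1.21-fold from each other. Group means were 542 ± 17.5 CPM (SD, n = 2) and 696 ± 95.2 CPM (SD, n = 2). This log2 difference of 0.36 (standard error 0.15, 1.28-fold) did not pass edgeR's quasi-likelihood test either (Benjamini-Hochberg adjusted p = 0.781, rank 1023 by p).

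Ptprb, which encodes the phosphatase acting on Tie2, separated the groups most clearly of the 3 abundant genes. The 2 controls had 6901 and 6535 counts against 14528 and 8837 in Pd1cKO-Tie2, or 479 and 460 CPM against 608 and 647 CPM. Libraries of the same genotype differed by 1.04-fold and 1.06-fold, and the closest pair across genotypes by 1.27-fold. Mean levels were 470 ± 13.0 CPM (SD, n = 2) in Pd1fl/fl and 628 ± 27.8 CPM (SD, n = 2) in Pd1cKO-Tie2. The log2 fold change was 0.42 (standard error 0.13, 1.34-fold). In edgeR's quasi-likelihood test 6.39% of all tested genes had an unadjusted p under 0.05. Of the 6 genes only Ptprb did (rank 334 by p, Benjamini-Hochberg adjusted p = 0.735). Its p was no longer under 0.05 without Pd1cKO-Tie2 replicate 2, and those of Tek and Tie1 were under 0.05 in DESeq2 and limma-voom. The adjusted p in DESeq2 was 0.186 for Ptprb, 0.445 for Tie1 and 0.553 for Tek.

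By the study's criterion, a change of at least 2-fold with p of 0.05 or less, 4.02% of all tested genes changed in either direction and 1.41% were higher in Pd1cKO-Tie2, and 0 of the 6 genes passed it. Tek, Tie1, Ptprb and Foxo1 lay above both controls in both Pd1cKO-Tie2 libraries, which 17.7% of all tested genes did, and none lay below in both, which 18.1% did. The median log2 fold change was 0.39 over the 6 genes and -0.004 over all tested genes. Without Pd1fl/fl replicate 1, the library with neutrophil transcripts, Tek, Tie1, Ptprb and Foxo1 were still above in both, Angpt2 was then below in both, and the log2 fold changes were 0.37 for Tek, 0.40 for Tie1, 0.45 for Ptprb and 0.78 for Foxo1. Against the remaining control alone, 32.9% of all tested genes lay above and 35.1% below in both.

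**Figure D2:**
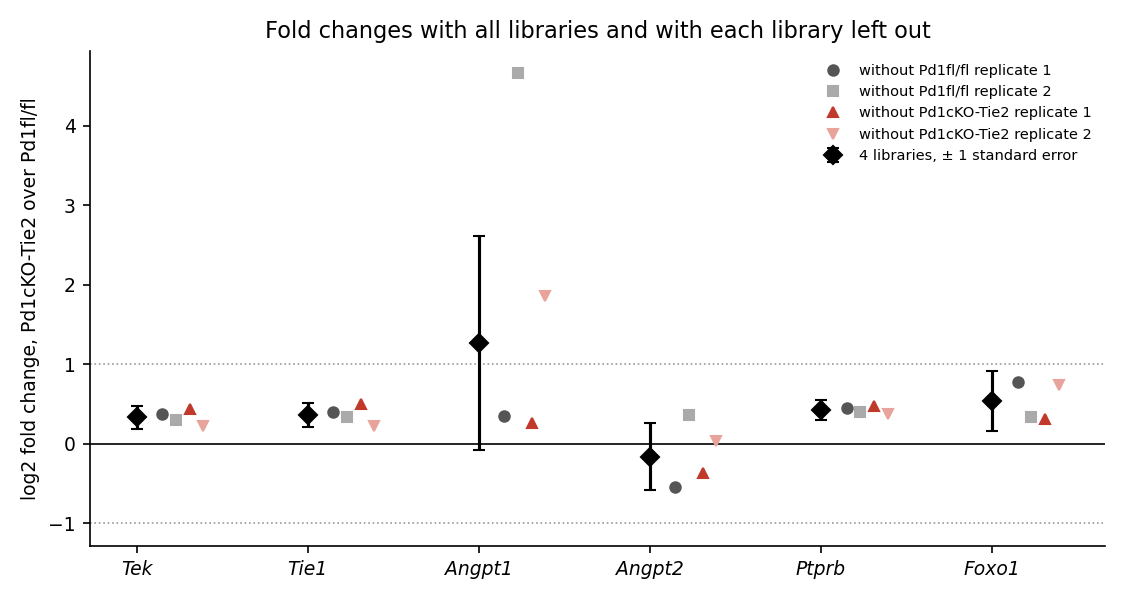
Log2 fold change of each gene, Pd1cKO-Tie2 over Pd1fl/fl, from all 4 libraries (black, ± 1 standard error) and with each library left out in turn; dotted lines mark a 2-fold change. Tek, Tie1 and Ptprb stay between 0.22 and 0.50 whichever library is left out, while Angpt1 ranges from 0.26 to 4.66 and Angpt2 from -0.54 to 0.36.

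Ratios of reads within a library do not depend on scaling. Per read of Tek there were 1.30 and 1.31 reads of Tie1 in the controls against 1.30 and 1.36 in Pd1cKO-Tie2, and the exact 95% counting interval of the last (1.32 to 1.40) overlapped that of Pd1fl/fl replicate 2 (1.26 to 1.35). The balance of the 2 receptors was thus close in all 4 libraries. Per read of Tek, Ptprb gave 1.12 and 1.13 reads in the controls against 1.25 and 1.16 in Pd1cKO-Tie2. Here both Pd1cKO-Tie2 libraries lay above the controls, but the interval of replicate 2 (1.12 to 1.19) overlapped those of the controls (1.08 to 1.16 and 1.09 to 1.18), and only that of replicate 1 (1.22 to 1.28) did not. With 2 libraries against 2 no exact permutation test of a ratio can give a two-sided p below 0.333, so none was run. The intervals cover counting error only.

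**Figure D3:**
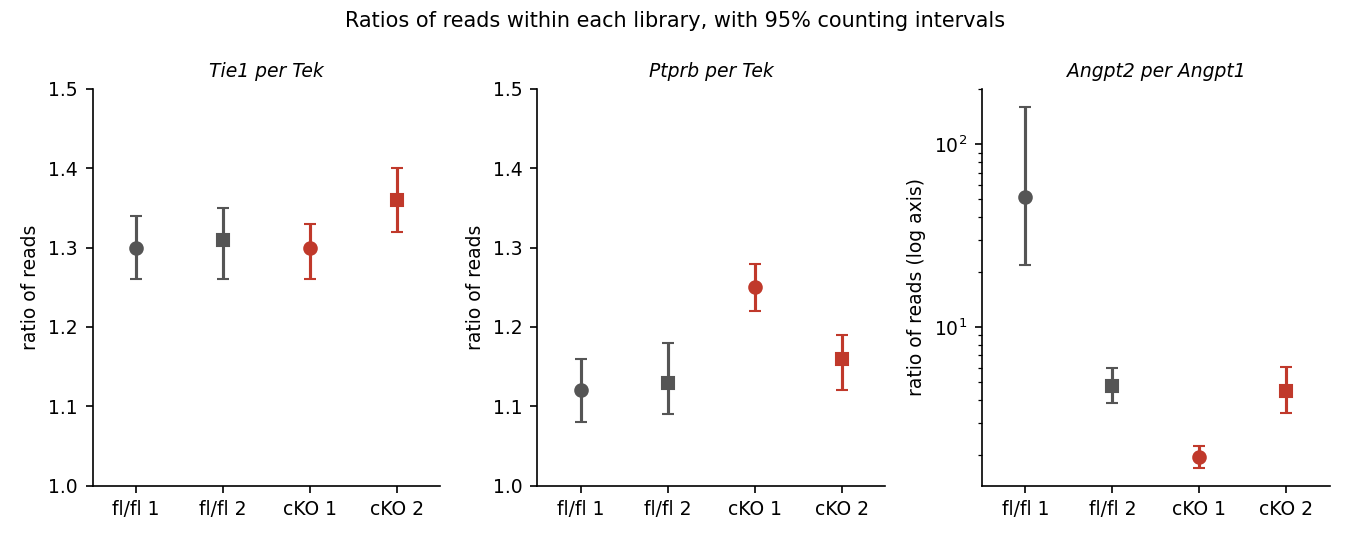
Ratios of reads within each library with exact 95% counting intervals, for Tie1 per Tek, Ptprb per Tek (axes from 1.0) and Angpt2 per Angpt1 (log axis), in Pd1fl/fl (grey) and Pd1cKO-Tie2 (red). Tie1 per Tek lies between 1.30 and 1.36 in the 4 libraries, while Angpt2 per Angpt1 runs from 1.95 to 51.6.

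Most endothelial markers also lay above the controls. Of the 14 endothelial markers, 13 did so in both Pd1cKO-Tie2 libraries, as did 17.7% of all tested genes, and 8 had an unadjusted p under 0.05, as did 6.39% of all. None of the 14 passed the 2-fold criterion or an adjusted p under 0.05. The markers had log2 fold changes from 0.21 to 0.67 and a median of 0.34, a range that holds the values of Tek, Tie1 and Ptprb. The most abundant marker, the tight junction gene Cldn5, stood at 5516 and 4774 CPM against 6562 and 7008 CPM. Cldn5 gave 79523 of 176121 and 67773 of 159674 marker reads in the controls. In Pd1cKO-Tie2 it gave 156788 of 349405 and 95673 of 212030, so a scale per marker read rests largely on this gene. Per 1000 reads of these 14 markers, Tek gave 34.9 and 36.1 reads in the controls against 33.2 and 36.1 in Pd1cKO-Tie2. Tie1 gave 45.4 and 47.1 against 43.0 and 49.2, so on this scale both receptors overlapped between genotypes and their log2 differences were -0.035 for Tek and -0.0046 for Tie1. Ptprb, at 39.2 and 40.9 against 41.6 and 41.7, differed by 0.056 on the log2 scale, against 0.42 after TMM scaling. Its libraries did not overlap, but the closest pair, 40.9 against 41.6, was nearly level. Neither counting intervals nor the share of all tested genes lying above were computed on this scale. In a bulk sample, fewer cells of a type and less RNA per cell cannot be told apart.

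Most markers of glia and microglia lay below the controls. The 7 radial glia and astrocyte markers summed to 1104 and 1278 CPM in the controls against 749 and 568 CPM in Pd1cKO-Tie2, and 6 of them lay below in both libraries, against 18.1% of all tested genes. For the 8 microglia and macrophage markers the sums were 1943 and 2362 against 716 and 1648 CPM, again with 6 below in both. No marker of either list was at 0 in any library. The radial glia markers Fabp7 and Hes5 and the microglial marker Tmem119, named after their values were seen, were the only genes of these lists past the 2-fold criterion, all lower in Pd1cKO-Tie2. Neuronal, oligodendrocyte lineage and fibroblast markers had median log2 fold changes of -0.11, 0.03 and 0.39. The fibroblast median rests on only 2 tested genes, Dcn (-0.04) and Col3a1 (0.82). The part of this shift in the levels of Tek, Tie1 and Ptprb was not tested. Scaling to endothelial markers is no such test, since it also removes any change that these genes share with the markers.

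**Figure D4:**
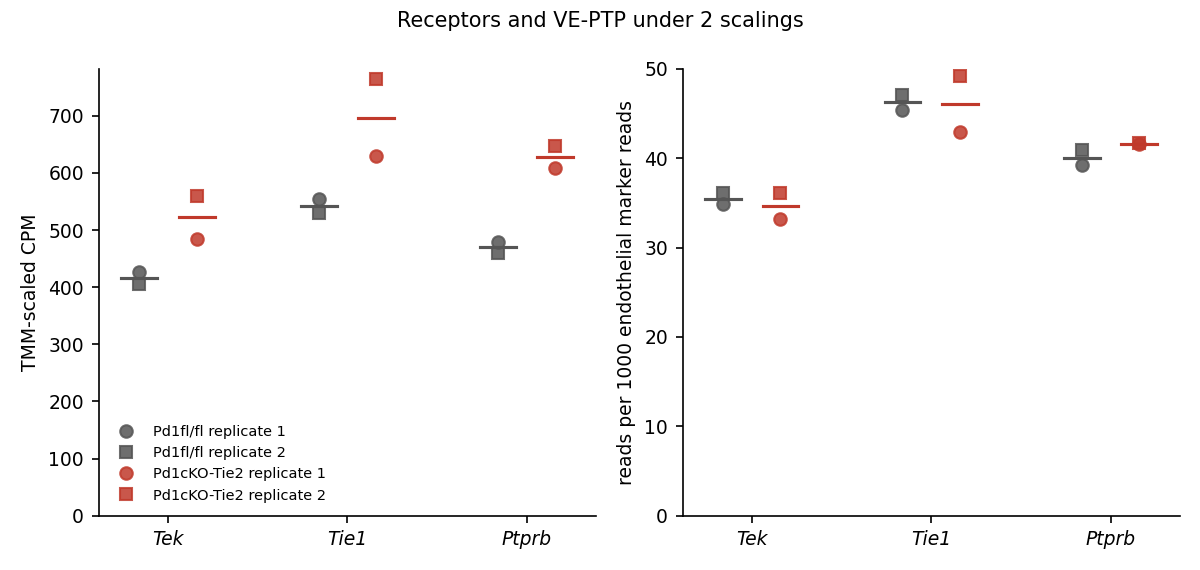
Tek, Tie1 and Ptprb in the 4 libraries as TMM-scaled CPM (left) and as reads per 1000 endothelial marker reads (right), both axes from 0, with a line at each group mean. The groups are apart on the left for all 3 genes, and on the right Tek and Tie1 overlap.

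Angpt1, the activating ligand, had few reads and varied widely between replicates. Its counts were 5 and 100 in the controls against 320 and 60 in Pd1cKO-Tie2, or 0.347 and 7.04 CPM against 13.4 and 4.39 CPM. Pd1fl/fl replicate 2 exceeded Pd1cKO-Tie2 replicate 2, so the groups overlapped, and the 2 controls differed 20.3-fold. Group means were 3.70 ± 4.74 CPM (SD, n = 2) and 8.89 ± 6.36 CPM (SD, n = 2). Its fitted log2 fold change of 1.27 came with a standard error of 1.34 (edgeR's quasi-likelihood test, Benjamini-Hochberg adjusted p = 1.00), and without Pd1fl/fl replicate 2, which leaves the control with 5 counts alone, it was 4.66 and passed the 2-fold criterion. The library with 5 counts was the one richest in mural cell markers: the 11 pericyte and smooth muscle markers summed to 5762 and 3762 CPM in the controls against 3863 and 3836 CPM in Pd1cKO-Tie2. Most of that sum was Rgs5, a pericyte gene, at 4916 and 3220 against 3259 and 3279 CPM, while 2 of the 11 were at 0 in some library or omitted for it, among them the smooth muscle actin gene Acta2. Their part in the spread of Angpt1 was not tested.

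Angpt2, the endothelial ligand, did not separate the genotypes. Control libraries had 258 and 476 counts against 625 and 269 in Pd1cKO-Tie2, or 17.9 and 33.5 CPM against 26.2 and 19.7 CPM. Both the lowest and the highest level belonged to the controls, whose means and spread were 25.7 ± 11.1 CPM (SD, n = 2) against 22.9 ± 4.56 CPM (SD, n = 2) in Pd1cKO-Tie2. Its log2 fold change was -0.16 with a standard error of 0.42 (edgeR's quasi-likelihood test, Benjamini-Hochberg adjusted p = 1.00), and the sign turned on leaving out Pd1fl/fl replicate 2 (0.36) or Pd1cKO-Tie2 replicate 2 (0.03).

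Angpt2 reads exceeded Angpt1 reads in each library. The ratio of Angpt2 to Angpt1 reads was 51.6 (exact 95% counting interval 21.8 to 160) and 4.76 (3.83 to 5.97) in Pd1fl/fl, and 1.95 (1.70 to 2.24) and 4.48 (3.38 to 6.03) in Pd1cKO-Tie2. Both Pd1cKO-Tie2 values were lower than both controls, but the intervals of Pd1fl/fl replicate 2 and Pd1cKO-Tie2 replicate 2 overlapped. Angpt1 exons are the longer, so the ratio is one of reads and not of transcripts. Angpt4, Lect2 and Svep1, further reported ligands of the Tie receptors, were not listed under these symbols. By the apparent listing rule of the deposited counts, each then had at most 4 counts in a library.

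Foxo1, the transcription factor downstream of Tie2, had a middling level, with 53.4% of tested genes at or below it in CPM. Its counts were 267 and 193 in the controls against 638 and 271 in Pd1cKO-Tie2, or 18.5 and 13.6 CPM against 26.7 and 19.8 CPM. Although both Pd1cKO-Tie2 libraries lay above both controls, the nearest pair differed only 1.07-fold, less than replicates of the same genotype (1.36-fold and 1.35-fold). The means were 16.1 ± 3.48 CPM (SD, n = 2) and 23.3 ± 4.84 CPM (SD, n = 2), and the log2 fold change was 0.54 with a standard error of 0.38 (edgeR's quasi-likelihood test, Benjamini-Hochberg adjusted p = 0.964). Per 1000 endothelial marker reads it gave 1.52 and 1.21 reads against 1.83 and 1.28, and on this scale the groups overlapped.

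Of the related FOXO factors, Foxo3 stood at 7.63 and 9.23 CPM against 11.7 and 18.2 CPM, with a log2 fold change of 0.83 (edgeR adjusted p = 0.925). Foxo4 had 4 and 7 counts against 58 and 22, with a log2 fold change of 2.37 and a standard error of 1.43 (edgeR adjusted p = 0.937), and Foxo6, with at most 2 counts, was not tested. Both tested factors lay above the controls in both libraries without passing the test. Among 17 FOXO target genes, 3 lay above and 4 below in both libraries (all tested genes, 17.7% above and 18.1% below), none had an unadjusted p under 0.05, and the median log2 fold change was 0.02 (range -1.52 to 0.67). The 2 with the smallest p were Cat, encoding catalase, with a log2 fold change of 0.24 (edgeR adjusted p = 0.906), and Insr, the insulin receptor gene, with 0.28 (edgeR adjusted p = 0.914).

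VE-PTP acts at endothelial junctions, where it meets VE-cadherin and the VEGF receptor. Of 6 partner genes, 4 lay above in both libraries and none below in both, beside 17.7% and 18.1% of all tested genes, and the median log2 fold change was 0.31; Cdh5 and Kdr also belong to the endothelial markers. Cdh5, encoding VE-cadherin, stood at 187 and 152 CPM against 240 and 229 CPM in Pd1cKO-Tie2, a log2 fold change of 0.47 (edgeR adjusted p = 0.753). Kdr, the VEGF receptor gene, stood at 1067 and 1068 CPM against 1307 and 1277 CPM, a log2 fold change of 0.28 (edgeR adjusted p = 0.753). Neither passed the 2-fold criterion.

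Downstream of the receptor, 19 adaptor and kinase genes gave a median log2 fold change of 0.05, with 3 above and 5 below in both libraries (17.7% and 18.1% over all tested genes) and none with an unadjusted p under 0.05. The smallest p among them belonged to Nos3, the endothelial nitric oxide synthase gene, at 56.9 and 65.4 CPM against 76.0 and 94.1 CPM (log2 fold change 0.47, edgeR adjusted p = 0.865), followed by the PI3K subunit gene Pik3cb (log2 fold change -1.04, edgeR adjusted p = 0.942). Of 5 tested genes for receptor shedding and other phosphatases, 1 lay above and 2 below in both, beside the same 17.7% and 18.1% of all tested genes. The endothelial phosphatase gene Ptprm was at 88.6 and 58.2 CPM against 101 and 107 CPM (log2 fold change 0.50, edgeR adjusted p = 0.906), and Timp3, an inhibitor of shedding proteases, had a log2 fold change of 0.25 (edgeR adjusted p = 0.987).

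The angiopoietin-like genes, secreted relatives that do not bind Tie2, had a median log2 fold change of -0.55 over 6 tested genes, with 1 above and 2 below in both libraries (17.7% and 18.1% of all tested genes). Angptl4, an inhibitor of lipoprotein lipase, was the 1 above, at 265 and 190 CPM against 361 and 357 CPM in Pd1cKO-Tie2 (log2 fold change 0.66, standard error 0.20, edgeR adjusted p = 0.735). Angptl7 had 35 and 20 counts against 10 and 2, with a log2 fold change of -2.71 (standard error 1.53, edgeR adjusted p = 0.915). No gene of the 6 pathway lists with tested members passed the 2-fold criterion.

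**Figure D5:**
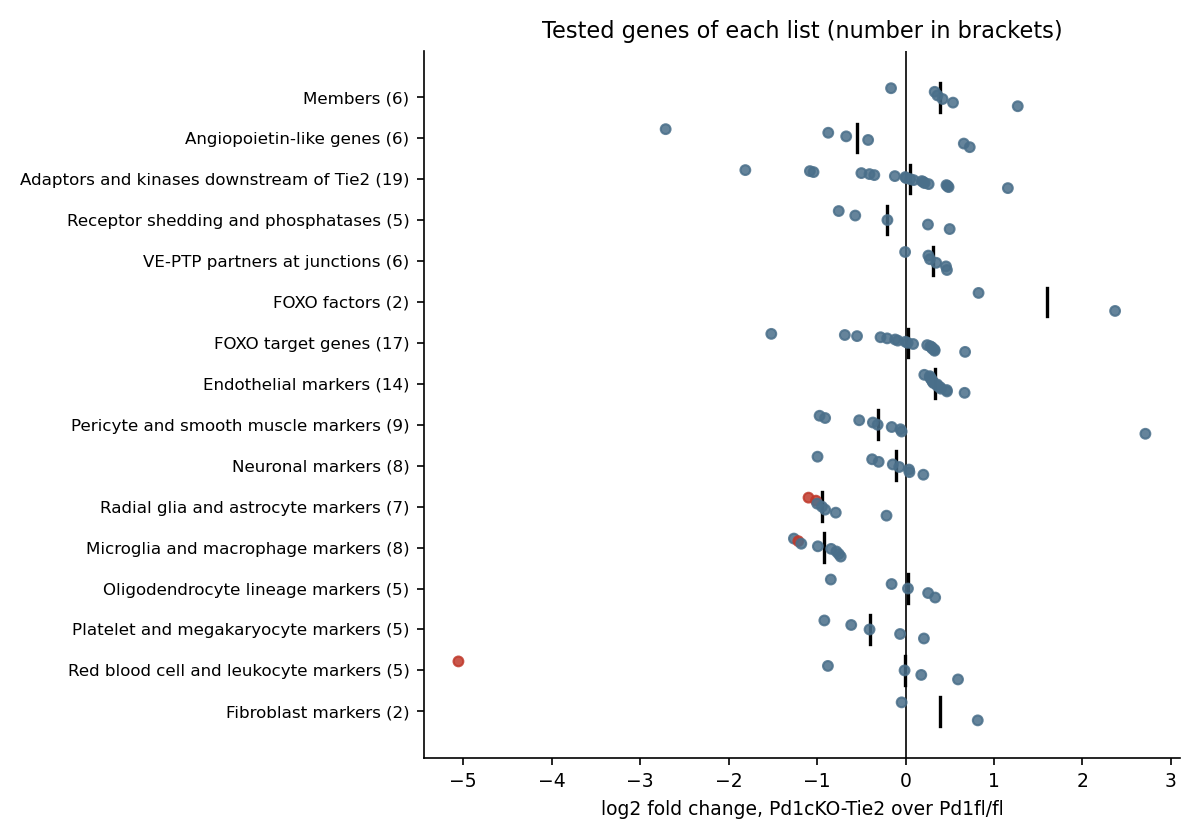
Log2 fold changes (Pd1cKO-Tie2 over Pd1fl/fl) of the tested genes of each list, with the number tested in brackets, a black bar at the median and red points for genes past the 2-fold criterion; the top row holds the 6 genes described here. The endothelial markers span 0.21 to 0.67, and the red points (Fabp7, Hes5, Tmem119 and S100a8) all lie below 0 in marker lists of other cells.

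The closest profile to Tek among 631 tested genes of similar level was that of Tie1, with a Euclidean distance of 0.0597 between their centred log2 CPM over the 4 libraries, against a median of 0.338 over these genes. Next for Tek came Csnk1a1, a casein kinase gene, at 0.0604, and next after Tek for Tie1 came Fam43a at 0.0891. The genes closest to Ptprb were S1pr1, a sphingosine 1-phosphate receptor gene of endothelium, at 0.0651 and Csnk1a1 at 0.0655. Of the less abundant genes, Angpt1 lay closest to Fut2 (0.290) and Tbc1d22b (0.558), Angpt2 to Anks1b (0.0800) and Tsc1 (0.105), and Foxo1 to Ptdss2 (0.0562) and Col4a3bp (0.121). These distances rest on 4 libraries and describe likeness of the pattern across them, not of level.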

How the data were processed

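The 4 libraries, 2 per genotype, came from RNA of sorted brain endothelium sequenced on the Illumina platform. Per the labels, the authors used TopHat2 2.0.12, Bowtie2 2.2.3 and HTSeq 0.6.0; the deposited values used here are raw read counts per gene. The labels name the build mm9, but 90.04% of the deposited gene positions equal those of GENCODE M21 (GRCm38), which also gave exon lengths. The 4 tables, each holding 1 library of each genotype, were joined by gene, and 10 broken lines were skipped. Every listed gene had a count in both libraries or at least 5 in 1. Omitted genes were taken to fall short of this rule and were set to 0. Whether all genes meeting the rule were listed was not checked. Normalized values, fold changes, p-values and significance calls of the authors' own pairwise comparisons, also in these tables, were not used. The library called Pd1cKO-Tie2 replicate 2 here is named by its column, whose number no label of that genotype carries, and was assigned by genotype. It is not paired with Pd1fl/fl replicate 2.

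Counts were filtered (filterByExpr), scaled by TMM and tested with edgeR 4.0.16 (quasi-likelihood F test, two-sided, R 4.3.3) over 15909 genes, with Benjamini-Hochberg adjustment over all of them. The common biological coefficient of variation over these genes was 0.610. Gene-wise values were 0.140 for Tek, 0.143 for Tie1, 0.133 for Ptprb, 0.317 for Foxo1, 0.332 for Angpt2 and 0.916 for Angpt1. The fit was tested on simulated data. DESeq2 1.42.0, limma-voom (limma 3.58.1), other filters, RLE, upper quartile and library size scaling, and leaving out each library were the alternatives. The genes and lists were chosen with earlier results of these data known. Besides the 6 genes, the text names list genes past the criterion, the 2 genes of each pathway list with the smallest p, the most abundant gene of marker lists, and the 2 genes within 1 log2 unit of level (prior count 2) nearest in profile to each of the 6. Promoter sequences are from RefSeq (GRCm38.p6), which matched 3 of the 6 genes (Tek, Tie1 and Foxo1); counting intervals are exact (95%).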

Additional observations from a re-analysis of the deposited data

How the results depend on the processing

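The number of the 6 genes past the 2-fold criterion was 0 with all 4 libraries under edgeR, DESeq2, limma-voom, both other filters and the other scalings, and between 0 and 1 when a library was left out; the 1 was Angpt1 without Pd1fl/fl replicate 2. Over all tested genes the count past the criterion was 640, against 936 with DESeq2, 504 with limma-voom, 480 to 698 under the other filters, 643 to 666 under the other scalings and 689 to 877 with a library left out. Leaving out 1 library gave log2 fold changes from 0.23 to 0.44 for Tek, 0.22 to 0.50 for Tie1, 0.38 to 0.47 for Ptprb, 0.32 to 0.78 for Foxo1, 0.26 to 4.66 for Angpt1 and -0.54 to 0.36 for Angpt2, whose sign turned without Pd1fl/fl replicate 2 (0.36) and without Pd1cKO-Tie2 replicate 2 (0.03); the cause was not tested. A lone library was then assumed to vary like the other group. Angpt1 gave no value where each library had to hold at least 10 counts. No paired analysis was possible because the labels of the 2 genotypes share only 1 replicate number. An alternative was added after seeing the data, the count of genes above in both Pd1cKO-Tie2 libraries without Pd1fl/fl replicate 1. It gave 4 of the 6 genes and 14 of the 14 endothelial markers, beside 32.9% of all tested genes. Angpt2 then lay below the 1 remaining control in both. Counting error is largest for Angpt1, which had 5 counts in 1 library.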

Other observations

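Markers of further cell types were measured in the same libraries. The 8 neuronal markers summed to 858 and 1217 CPM in Pd1fl/fl and 1009 and 888 CPM in Pd1cKO-Tie2, with Dcx, a gene of young neurons, the most abundant. The 5 oligodendrocyte lineage markers summed to 164 and 109 against 193 and 100 CPM, led by Olig1, and the 5 platelet markers to 118 and 113 against 90.4 and 98.7 CPM. The 4 fibroblast markers summed to 62.7 and 12.6 against 58.6 and 45.6 CPM, led by the collagen gene Col3a1, and 3 of the 4 were at 0 in some library or omitted for it. In these lists no gene passed the 2-fold criterion.

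Blood cell transcripts were present although red cells were lysed and antibodies to CD31 and CD45 were used in the study's sorting of endothelial cells. The 6 red blood cell and leukocyte markers summed to 973 and 680 CPM in Pd1fl/fl and 621 and 1123 CPM in Pd1cKO-Tie2. The most abundant of them in each library was the globin gene Hba-a1, at 456 and 369 against 427 and 817 CPM. Ptprc, which encodes CD45, stood at 86.4 and 139 against 54.6 and 67.9 CPM, lower in both Pd1cKO-Tie2 libraries (log2 fold change -0.88, edgeR adjusted p = 0.735). S100a8 passed the 2-fold criterion as lower in Pd1cKO-Tie2, which rested on Pd1fl/fl replicate 1. The part of these cells in the levels of Tek and its partners was not tested.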
